A study of Homo sapiens with 12 samples.

Results

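RSAD2 and CMPK2 are adjacent genes on human chromosome 2 that interferon switches on together in many cell types. RSAD2 encodes viperin, a radical SAM enzyme, one that uses an iron-sulphur cluster to start radical chemistry on S-adenosylmethionine. Viperin turns CTP into ddhCTP, a nucleotide that stops viral RNA polymerases. CMPK2 is a mitochondrial kinase that phosphorylates UMP and CMP and so belongs to the route that supplies pyrimidine nucleotides. Members were all probe sets whose annotation names a single one of these genes. These 2 of 19775 singly named genes had 3 of the 54675 probe sets of the table, 242625_at and 213797_at for RSAD2 and 226702_at for CMPK2.

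The series measured gene expression on 12 Affymetrix arrays, 1 for each combination of 3 human cancer cell lines and 4 treatments. Per the labels PC-3 comes from prostate, HBC4 from breast and MKN74 from gastric cancer. The G4 arrays are those of the DNA oligonucleotide AS1411 and of the RNA oligonucleotide (uuaggg)4, which are called G-quadruplex (G4) formers in the design. A G-quadruplex is a folded nucleic acid of stacked guanine tetrads, and AS1411 is a guanine-rich aptamer known to bind nucleolin. The control arrays are those of the RNA oligonucleotide (uuaccc)4 and of Lipofectamine RNAiMAX alone. Each oligonucleotide was given at about 100 pmol (1.0 ug) per well to 300000 cells by reverse transfection, and RNA was taken 72 h later from cells grown under low-adhesion conditions. All groups, controls included, received the transfection reagent and this form of culture.

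The starts of the pair lie close together, and the sequence there is shown because both genes moved together on the arrays. RefSeq (GRCh38.p14) gives RSAD2, on the plus strand, starts at positions 6865885 and 6877777 of chromosome 2, and CMPK2, on the minus strand, starts at 6865819, 6865907 and 6866635. The upstream RSAD2 start is therefore 66 bases from the CMPK2 start at 6865819, with transcripts running apart, and 22 bases from that at 6865907, whose transcript runs back over it. The window from 250 bases before to 50 after the upstream RSAD2 start holds the letters GAAACGAAA 4 times on the plus strand. Each copy is given below in capitals with its flanks, on the plus strand of chromosome 2, and this 9-base search was chosen after the sequence was seen.
Copy at chr2:6865723-6865751: ccccgcctcgGAAACGAAAcctggcggga
Copy at chr2:6865757-6865785: gcgccggcggGAAACGAAAcccggaggga
Copy at chr2:6865791-6865819: gcgccagcggGAAACGAAAgcgaagcgtt
Copy at chr2:6865815-6865843: gcgttgcgggGAAACGAAAgccggaggcc

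**Figure D1:**
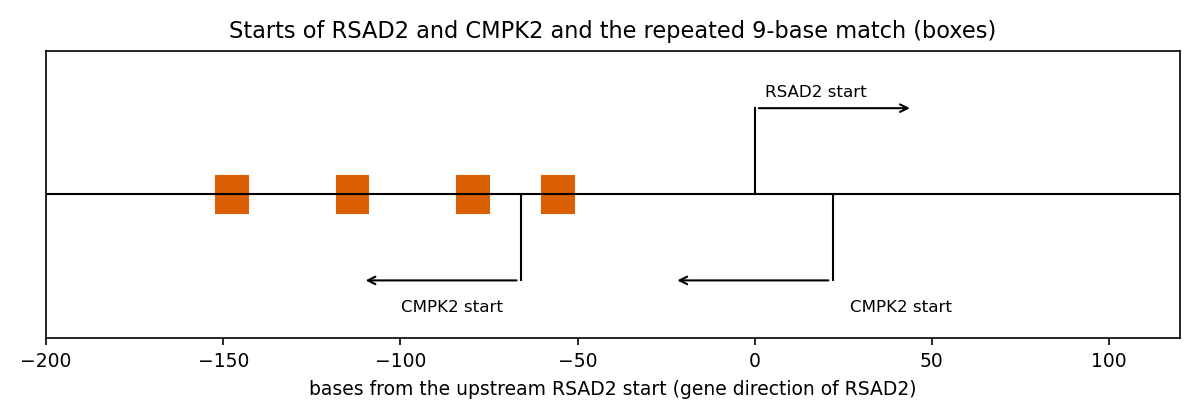
Map of the RSAD2 and CMPK2 starts, in bases from the upstream RSAD2 start, with arrows in the direction of transcription and boxes at the 4 copies of the 9-base match. All 4 copies lie before the upstream RSAD2 start, 1 of them between it and the CMPK2 start at -66. The CMPK2 start at 750 and the RSAD2 start at 11892 are off the scale.

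The 9 letters occur on either strand in 57 of 35116 windows of this length (0.162%), and 4 or more times in 1 of them (0.00285%), that of the upstream RSAD2 start. Since the letters were chosen after the sequence of that window was seen, its place here was fixed in advance. The window of the CMPK2 start at 6865819 holds 2 of the same copies. The shorter core AANNGAAA, which interferon regulatory factors recognise and which lies inside each copy, occurs in 22.8% of windows. It occurs 4 or more times, as in the upstream RSAD2 window, in 0.273% of windows. The core of the interferon-stimulated response element, searched as GAAA, any 2 bases and GAAA, occurs in 3.57% of windows, again on both strands. None of the 3 CMPK2 windows nor that of the upstream RSAD2 start holds it, but the downstream RSAD2 start has 1 match on the opposite strand, in capitals in the 250 bases before that start (plus strand). These matches are letters in a window, and binding was not measured here.
RSAD2, chr2:6877527-6877776: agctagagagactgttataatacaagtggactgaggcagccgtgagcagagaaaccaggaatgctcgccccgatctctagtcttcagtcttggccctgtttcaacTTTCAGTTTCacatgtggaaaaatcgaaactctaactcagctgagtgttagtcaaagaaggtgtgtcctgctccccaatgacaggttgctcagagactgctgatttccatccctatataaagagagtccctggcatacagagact

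Values are log2 and each probe set is centred on its own median over the 12 arrays, so a value says how far an array lies above or below that median and gives no level or detection call. A difference between arrays is a log2 fold change. Over 54613 probe sets Pearson's r was at least 0.856 between arrays of the same line and at most -0.171 between lines, which centring lowers. Of 31 measured markers of epithelial, prostate, breast, gastric, leukocyte, plasmacytoid dendritic and fibroblast cells, 0 passed an adjusted p of 0.05 in G4 against control arrays (limma). At that threshold 1.1% of all probe sets were called lower and 0.474% higher, so a count of 0 among the markers lies near these shares. The breast markers were all highest in HBC4 (5 of 5), as were all 4 measured leukocyte markers, among them CD14 (mean 3.01) and LYZ (2.25). Some of these leads were small, as for the breast markers GATA3 (0.21 against 0.03 in MKN74) and ANKRD30A (0.08 against -0.03 in MKN74). The leukocyte markers PTPRC (0.17 against 0.08 in MKN74) and CD3E (0.06 against -0.04 in PC-3) also barely differed. Of 4 measured prostate markers 2 were highest in PC-3, among them the factor HOXB13 (4.76), and 2 in HBC4, KLK2 (0.18) and KLK3 (0.32). Only 1 of 6 gastric and intestinal markers, CDX2, was highest in MKN74, while TFF1 and TFF2, which the stomach secretes, stood 8.15 and 8.26 above their medians in PC-3.

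The main comparison asked what the G4 oligonucleotides changed against both controls. Viperin mRNA fell in every line. On RSAD2 242625_at the PC-3 arrays read -3.18 with AS1411 and -2.31 with (uuaggg)4, against 0.75 with (uuaccc)4 and 1.16 with reagent alone. In HBC4 the values were -4.37 with AS1411 and -3.72 with (uuaggg)4, against 0.36 with (uuaccc)4 and 0.15 with reagent alone. In MKN74 they were -0.15 with AS1411 and -0.26 with (uuaggg)4, against 1.40 with (uuaccc)4 and 1.49 with reagent alone. All 6 G4 arrays lay below all 6 control arrays, with HBC4 lowest and MKN74 highest among the G4 arrays, and such a separation held for 0.15% of all probe sets.

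The second RSAD2 probe set, 213797_at, gave a similar order of the arrays (Spearman's rho 0.993). Its PC-3 values were -2.50 with AS1411 and -1.66 with (uuaggg)4, against 1.13 with (uuaccc)4 and 1.50 with reagent alone. Its HBC4 values were -3.94 and -3.22 with these G4 oligonucleotides, against 0.22 and 0.14 with the controls in that order, and its MKN74 values were -0.14 and -0.35, against 1.31 and 1.60. Again no G4 array reached any control array.

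CMPK2, the nucleotide kinase next door, fell alongside. On 226702_at the PC-3 arrays read -0.98 with AS1411 and -0.32 with (uuaggg)4, against 2.51 with (uuaccc)4 and 2.84 with reagent alone. HBC4 had -4.33 with AS1411 and -4.13 with (uuaggg)4, against -0.18 with (uuaccc)4 and -0.34 with reagent alone. MKN74 had 0.18 with AS1411 and 0.55 with (uuaggg)4, against 2.21 with (uuaccc)4 and 2.07 with reagent alone. Within each line both G4 arrays lay below both control arrays, as for 2.98% of all probe sets. Across lines the groups overlapped, because the HBC4 control arrays lay below the MKN74 G4 arrays.

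**Figure D2:**
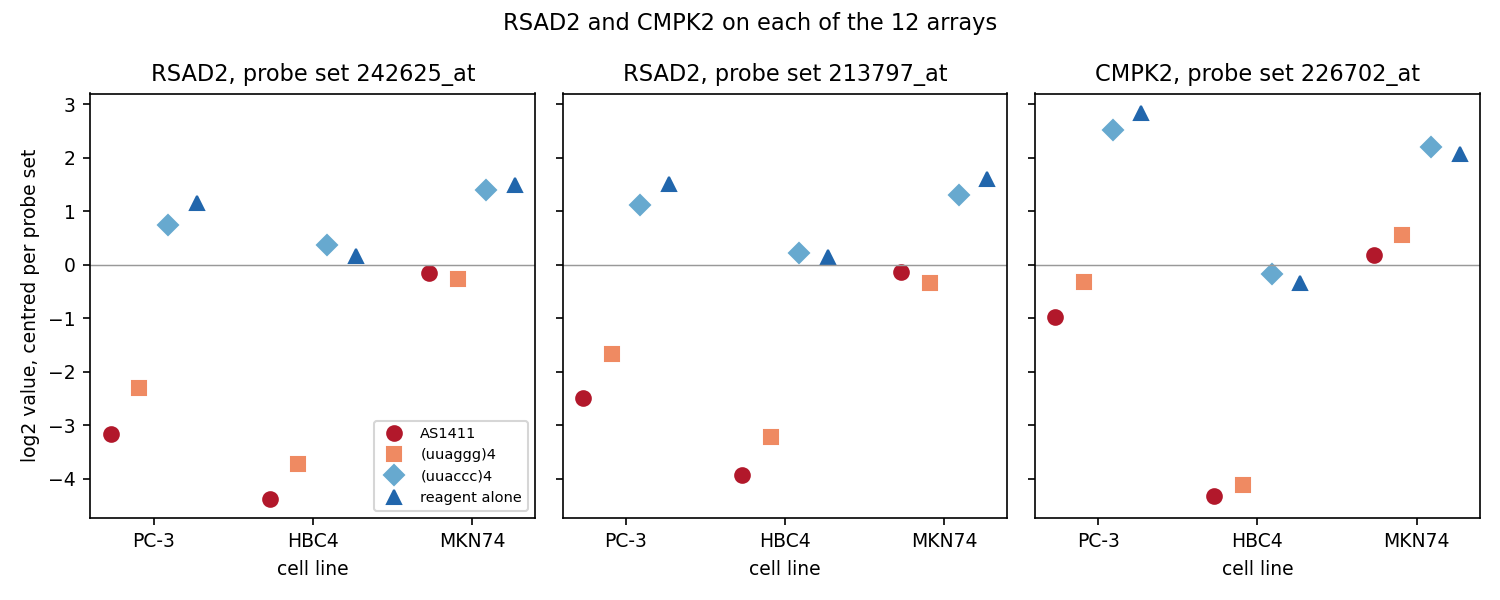
Value of each array (log2, centred per probe set) for the 3 probe sets, by cell line on the horizontal axis and with a symbol for each treatment; each point is 1 array. In each line the AS1411 and (uuaggg)4 arrays lie below the (uuaccc)4 and reagent arrays, and the gap is narrowest in MKN74.

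Fitted over all 12 arrays with the cell line as a block, G4 arrays averaged -2.33 and control arrays 0.89 on RSAD2 242625_at, a log2 difference of -3.22 ± 1.39 (SD of the line differences, n = 3), or 9.31-fold lower (limma adjusted p = 8.98e-04). On RSAD2 213797_at the means were -1.97 and 0.98 in the same order, a difference of -2.95 ± 1.10 (7.75-fold lower, limma adjusted p = 4.08e-04). CMPK2 averaged -1.50 in G4 arrays and 1.52 in control arrays, a difference of -3.02 ± 1.13 (8.13-fold lower, limma adjusted p = 3.27e-04). All 3 probe sets passed, where 1.1% of the 54613 probe sets tested were called lower, and by fold they ranked 2, 8 and 5 from the lowest. An exact two-sided permutation of the arrays within lines gave p = 0.00926 for each, the smallest value it can give. The spread behind the fit is that between single arrays of different treatments and lines, since the labels name no repeat cultures, and in such bulk RNA fewer responding cells and less RNA per cell cannot be told apart. For RSAD2 242625_at the call ended without PC-3 (-2.98, limma adjusted p = 0.0504) and without HBC4 (-2.67, limma adjusted p = 0.0716), while the other 2 probe sets kept theirs.

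The fall differed in size between the lines. Within PC-3 it was -3.70 on RSAD2 242625_at (95% interval -4.28 to -3.11), -3.39 on 213797_at (-3.99 to -2.79) and -3.32 for CMPK2 (-3.78 to -2.87). In HBC4 the same probe sets had -4.31 (-4.89 to -3.72), -3.77 (-4.37 to -3.16) and -3.97 (-4.42 to -3.52). MKN74 had the smallest falls, -1.65 (-2.24 to -1.07), -1.70 (-2.30 to -1.10) and -1.77 (-2.23 to -1.32), or about 3.14-fold to 3.42-fold. All 9 within-line differences passed in limma, the largest adjusted p being 0.0168, where the share of probe sets called lower was 0.798% for PC-3, 0.981% for HBC4 and 0.652% for MKN74. In MKN74 both RSAD2 calls ended without any single array of that line (adjusted p 0.0739 to 0.126), and the CMPK2 call did not.

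**Figure D3:**
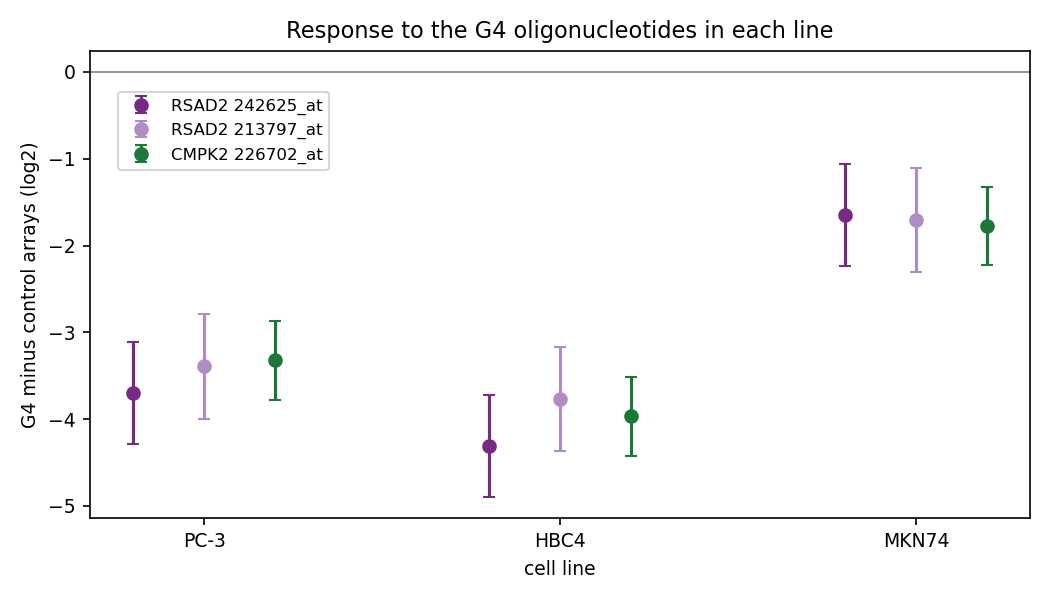
G4 minus control arrays (log2) in each cell line for the 3 probe sets; points are fitted differences of 2 against 2 arrays and bars their 95% intervals, with the spread pooled over lines. The 3 probe sets lie close together within a line, near -3.3 to -4.3 in PC-3 and HBC4 and near -1.7 in MKN74.

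Tested as an interaction, the response differed between lines for RSAD2 242625_at (limma F test, adjusted p = 0.0254) and CMPK2 (adjusted p = 0.0191), and RSAD2 213797_at did not pass (adjusted p = 0.0713, and 0.0410 after quantile normalization), where 0.487% of probe sets were called. The fall of CMPK2 was larger in HBC4 than in MKN74 (difference of the log2 responses -2.19, 95% interval -2.83 to -1.55, limma adjusted p = 0.0151), and that of RSAD2 242625_at was larger too (difference -2.65, interval -3.48 to -1.82, adjusted p = 0.0211), while RSAD2 213797_at gave -2.06 without passing (adjusted p = 0.0693); 0.233% of probe sets were called between these lines. PC-3 against MKN74 gave -2.04 (adjusted p = 0.0513) for RSAD2 242625_at, -1.69 (adjusted p = 0.116) for 213797_at and -1.55 (adjusted p = 0.0542) for CMPK2, without passing (0.372% of probe sets were called). PC-3 against HBC4 gave 0.61 (interval -0.22 to 1.44) for RSAD2 242625_at, 0.37 (-0.48 to 1.22) for 213797_at and 0.65 (0.01 to 1.29) for CMPK2, without passing (adjusted p 0.621, 0.798 and 0.475), where 0.137% were called. These pairs of lines were set against each other after the values were seen. The interaction call ended without any of 8 single arrays for RSAD2 242625_at (adjusted p up to 0.0972) and without any of 6 for CMPK2 (up to 0.0813), among them, for both genes, the reagent array of HBC4 (0.0635 and 0.0530), its (uuaccc)4 array (0.0661 and 0.0567) and its AS1411 array (0.0536 and 0.0636), and the reagent (0.0841 and 0.0813), (uuaccc)4 (0.0972 and 0.0670) and (uuaggg)4 (0.0745 and 0.0705) arrays of MKN74. For RSAD2 242625_at it also ended without the reagent array of PC-3 (0.0512) or the AS1411 array of MKN74 (0.0875).

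The lines also differed without any G4 oligonucleotide. In control arrays CMPK2 averaged 2.68 ± 0.23 in PC-3, 2.14 ± 0.10 in MKN74 and -0.26 ± 0.12 in HBC4 (SD, n = 2 arrays each). CMPK2 was thus 7.66-fold higher in PC-3 than in HBC4 (difference 2.94, limma adjusted p = 3.04e-07) and lower in HBC4 than in MKN74 (-2.40, adjusted p = 1.90e-06), while PC-3 and MKN74 differed by 0.54 (interval 0.09 to 0.99) without passing (adjusted p = 0.0526). After quantile normalization the last difference was -0.32, with the order of PC-3 and MKN74 turned. Line differences are common in these data: 40.3% of probe sets were called between PC-3 and HBC4, 37.1% between HBC4 and MKN74 and 44.8% between PC-3 and MKN74.

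RSAD2 had the order MKN74, PC-3, HBC4 in control arrays on both of its probe sets. On 242625_at the means were 1.45 ± 0.06 in MKN74, 0.96 ± 0.29 in PC-3 and 0.26 ± 0.15 in HBC4. Only HBC4 against MKN74 passed there (-1.19, limma adjusted p = 0.00374), while PC-3 against HBC4 (0.70, adjusted p = 0.0582) and PC-3 against MKN74 (-0.49, adjusted p = 0.167) did not. On 213797_at HBC4 was below MKN74 (-1.27, adjusted p = 0.00273) and PC-3 above HBC4 (1.13, adjusted p = 0.00566, and 0.94 with adjusted p = 0.0531 without the reagent array of PC-3), and PC-3 against MKN74 did not pass (-0.14, adjusted p = 0.717). With G4 oligonucleotides, the gap of PC-3 over HBC4 was 3.58 for CMPK2, 1.31 for RSAD2 242625_at and 1.50 for RSAD2 213797_at. HBC4 therefore had the lowest values of both genes with and without them.

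The RNA comparison set (uuaggg)4 against (uuaccc)4. Over the 3 lines CMPK2 averaged -1.30 with (uuaggg)4 and 1.51 with (uuaccc)4, a difference of -2.81 ± 1.15 (SD, n = 3 lines), or 7.02-fold lower (limma adjusted p = 0.0247). PC-3 differed by -2.83, HBC4 by -3.95 and MKN74 by -1.66. RSAD2 213797_at fell 6.19-fold, with means of -1.74 with (uuaggg)4 and 0.89 with (uuaccc)4 (-2.63 ± 0.90, adjusted p = 0.0349). RSAD2 242625_at, with the largest difference of the 3, missed the threshold (-2.93 ± 1.22, interval -4.03 to -1.84, adjusted p = 0.0502). In this comparison 0.159% of probe sets were called lower. The CMPK2 call ended without PC-3 (-2.80, adjusted p = 0.353), without HBC4 (-2.24, adjusted p = 0.512) and without the (uuaccc)4 or (uuaggg)4 array of PC-3 (0.159 and 0.149) or of HBC4 (0.169 and 0.155), and that of RSAD2 213797_at in the same 6 cases (0.433, 0.541, 0.204, 0.202, 0.226 and 0.232) and without the reagent array of HBC4 (0.0578) or the (uuaggg)4 array of MKN74 (0.0816).

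AS1411 was set against reagent alone, as the series has no matched DNA control among its groups. RSAD2 242625_at averaged -2.57 with AS1411 and 0.93 with reagent alone, a difference of -3.50 ± 1.61 (11.3-fold lower, limma adjusted p = 0.0119). PC-3 had -4.34, HBC4 -4.53 and MKN74 -1.64. RSAD2 213797_at fell 9.70-fold (-3.28 ± 1.33, adjusted p = 0.00524). CMPK2 averaged -1.71 with AS1411 and 1.52 with reagent alone, a difference of -3.23 ± 1.16 (9.40-fold lower, adjusted p = 0.00514). All 3 passed, where 0.311% of probe sets were called lower. Without PC-3 the adjusted p was 0.206, 0.146 and 0.146, and without HBC4 it was 0.262, 0.204 and 0.137, for RSAD2 242625_at, RSAD2 213797_at and CMPK2 in that order. The call of RSAD2 242625_at also ended without the reagent or AS1411 array of PC-3 (0.0662 and 0.0761) or HBC4 (0.0889 and 0.0924), that of RSAD2 213797_at without the reagent array of HBC4 (0.0503), and that of CMPK2 without its AS1411 array (0.0504).

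No difference between the 2 G4 oligonucleotides passed. (uuaggg)4 minus AS1411 was 0.47 ± 0.51 on RSAD2 242625_at (interval -0.62 to 1.56), 0.45 ± 0.57 on 213797_at (-0.44 to 1.35) and 0.41 ± 0.23 for CMPK2 (-0.46 to 1.29), with a limma adjusted p of 1.00 for each. The AS1411 array was the lower of the pair in all 3 lines for CMPK2, as for 13.3% of all probe sets, and in PC-3 and HBC4 but not MKN74 for RSAD2, as for 10.8%. In this comparison limma called 0 of 54613 probe sets, with 2633 at an unadjusted p under 0.05. The intervals leave differences of up to 1.29 on the log2 scale or more possible.

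No difference between (uuaccc)4 and reagent alone passed for either gene. The difference was -0.09 ± 0.31 on RSAD2 242625_at (interval -1.19 to 1.00), -0.19 ± 0.24 on 213797_at (-1.09 to 0.70) and -0.01 ± 0.28 for CMPK2 (-0.88 to 0.87), none of which passed (limma adjusted p = 1.00). By line, CMPK2 had differences of -0.33 (PC-3), 0.17 (HBC4) and 0.14 (MKN74). Here too limma called 0 probe sets, with 1703 at an unadjusted p under 0.05.

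RSAD2 and CMPK2 followed each other closely once each line's mean was subtracted. The subtraction leaves mostly the step between G4 and control arrays, so a high r largely restates the fall that both genes shared. Agreement within the G4 arrays or within the control arrays alone was not tested. Over the 12 arrays, which share their lines and treatments, Pearson's r between RSAD2 242625_at and CMPK2 was 0.91 on the deposited values (Spearman's rho 0.85) and 0.995 after that subtraction (rho 0.98). The RSAD2 probe sets had 0.993 with each other before and 0.998 after it. The response of RSAD2 242625_at minus that of CMPK2 was -0.20 ± 0.28 (SD, n = 3 lines), with PC-3 at -0.37, HBC4 at -0.34 and MKN74 at 0.12 (exact two-sided permutation within lines, p = 0.176, smallest possible p = 0.00926). With RSAD2 213797_at in its place the sign turned, to 0.07 ± 0.14 (exact permutation p = 0.694). A difference in the size of the fall between these genes was thus not shown on either probe set.

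**Figure D4:**
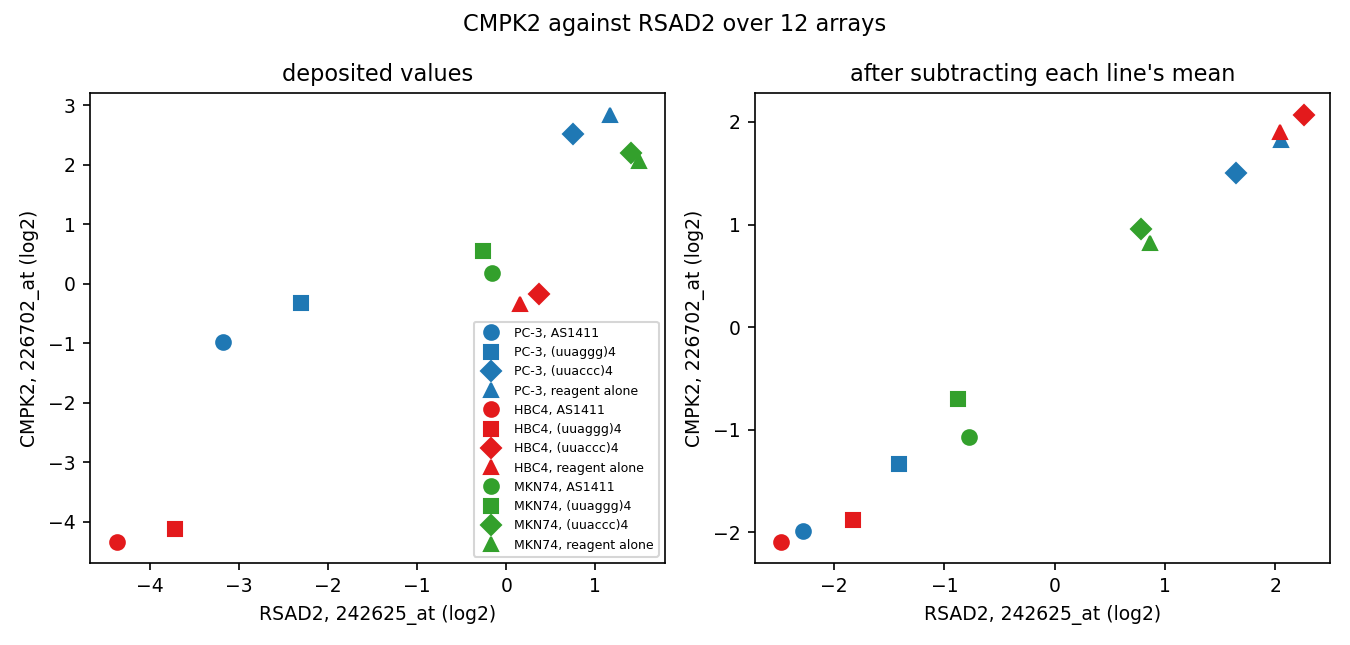
CMPK2 226702_at (vertical, log2) against RSAD2 242625_at (horizontal, log2) on 12 arrays, with colours for lines and symbols for treatments, as deposited (left) and after subtracting each line's mean (right). On the left HBC4 lies below the other lines when arrays of the same treatment are compared, and on the right the 12 points fall near a line (r = 0.995).

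Genes whose line-centred profile was most like that of RSAD2 were ranked by Pearson's r over the 12 arrays among 19773 other genes. Each gene was entered with its probe set of highest r. These r values, too, largely restate a shared fall with G4 oligonucleotides. HERC5, the ligase that attaches ISG15, had 0.998, the membrane restriction factor IFITM1 0.996 and XAF1, a pro-apoptotic partner of XIAP, 0.995. TRIM69 (0.994), the ISG15 protease USP18 (0.994), the 2-5A synthetase OAS2 (0.992), the death ligand TNFSF10 (0.991) and the dynamin-like GTPase MX2 (0.990) followed. CMPK2 itself would have stood after 2 of these. For CMPK2 the list was headed by the deoxynucleotide hydrolase SAMHD1 (0.995, the highest of its 6 probe sets), and RSAD2 exceeded all 19773 genes. IFITM1 (0.994), OAS2 (0.994), HERC5 (0.994), IFIT2 (0.994), XAF1 (0.991), TRIM69 (0.991) and ZFYVE26 (0.991) came next. Without the subtraction r ranged widely, with RSAD2 being at 0.95 with USP18 and 0.22 with TNFSF10, and CMPK2 at 0.29 with SAMHD1 and 0.26 with XAF1.

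Genes beside the pair on chromosome 2 were taken from RefSeq's gene order, 5 on each side. Of these 10, only 3 had a probe set named here, and 0 passed (limma, adjusted p of 0.578 or more). Over all probe sets 1.1% were called lower and 0.474% higher, so 0 of 3 lies near these shares. The non-coding LINC00487 had -0.12 ± 0.10 and GRASLND -0.01 ± 0.27, and RNF144A, a ubiquitin ligase, had -0.13 ± 0.36 (SD, n = 3 lines). NRIR, the non-coding RNA next to CMPK2, had no probe set named here and was not analysed here.

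Most genes of nucleotide supply around the pair did not pass, but the share called higher was above that over all probe sets. Whether the list differs as a set was not tested. The list counts use 1 probe set per gene and the shares use all probe sets, so they are not measured alike. Of 24 measured genes of pyrimidine and CTP supply, 0 fell and 3 rose in G4 against control arrays, with a list median of 0.11 against 0.02 over all probe sets. The risers were the dUTPase DUT (0.51 ± 0.26, limma adjusted p = 0.0221), the ribonucleotide reductase subunit RRM2 (0.47 ± 0.16, adjusted p = 0.0180) and thymidylate synthase, TYMS (0.36 ± 0.08, adjusted p = 0.0223), where 0.474% of probe sets were called higher. Over their 2 or 3 probe sets the values ran from 0.13 to 0.51 for DUT, 0.28 to 0.47 for RRM2 and 0.12 to 0.42 for TYMS. The cytosolic kinase CMPK1 had 0.04 ± 0.02 (limma adjusted p = 0.791). The CTP synthases that make viperin's substrate, CTPS1 (0.02 ± 0.39) and CTPS2 (-0.12 ± 0.16), did not pass either, nor did thymidine kinase TK1 (0.32 ± 0.09, adjusted p = 0.0827).

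Among 14 measured genes of nucleotide breakdown 2 fell and 0 rose (median 0.13), where 1.1% of all probe sets were called lower and 0.474% higher. SAMHD1, which hydrolyses deoxynucleotides, fell 1.52 ± 0.58 on the log2 scale (that is, -1.52, limma adjusted p = 6.21e-04), with its 6 probe sets between -1.52 and -0.30. The pyrimidine nucleotidase NT5C3A had -0.60 ± 0.43 (adjusted p = 0.0366). The nucleotide sanitising hydrolase NUDT1 (0.35 ± 0.15, adjusted p = 0.0590) and the nucleotidase NT5C2 (-0.24 ± 0.15, adjusted p = 0.132) did not pass. None of 7 adenylate and guanylate kinases passed (range -0.04 to 0.23), AK5 having the smallest p among them (0.23 ± 0.98, adjusted p = 0.718).

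Counts for viperin's enzyme class, cofactor supply and partners lay near the shares called over all probe sets (1.1% lower, 0.474% higher). None of 7 other radical SAM enzymes passed, with values from -0.18 for the acetyltransferase ELP3 (adjusted p = 0.221) to 0.15 for the lipoate synthase LIAS (adjusted p = 0.303). Of 9 measured genes of iron-sulphur assembly none passed. CIAO1, which delivers clusters to viperin, had 0.15 ± 0.12 (limma adjusted p = 0.306), with its 3 probe sets between -0.13 and 0.15. The cysteine desulfurase NFS1 had -0.21 ± 0.18 (limma adjusted p = 0.186). None of 7 reported viperin partners passed either, among them HADHB, a subunit of the mitochondrial trifunctional protein (0.05 ± 0.10), and FDPS, the farnesyl diphosphate synthase (0.00 ± 0.04). VAPA had 0.20 ± 0.19 (limma adjusted p = 0.472), with its 5 probe sets between -0.03 and 0.20.

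Of 13 measured genes of interferon signalling that acts on the pair, 4 fell and 0 rose (median -0.21), against 1.1% called lower over all probe sets. They were the transcription factors IRF7 (-1.09 ± 0.42, limma adjusted p = 0.00105), IRF9 (-0.99 ± 0.51, adjusted p = 0.00612) and IRF1 (-0.52 ± 0.29, adjusted p = 0.0175), and the interferon gene IFNL1 (-0.72 ± 0.42, adjusted p = 0.0216). IFNB1 had -0.70 ± 0.56 (adjusted p = 0.0717), the receptor chain IFNAR2 -0.25 ± 0.04 (adjusted p = 0.0725) and IRF3 -0.01 ± 0.05 (adjusted p = 0.968), none passing. By line, PC-3 had -1.25, HBC4 -1.40 and MKN74 -0.62 for IRF7, and for IRF9 they had -1.19, -1.37 and -0.41, so MKN74 had the smallest fall of these 2 genes. The other 2 ordered the lines differently, with -0.85, -0.29 and -0.43 for IRF1, smallest in HBC4, and -0.46, -1.20 and -0.49 for IFNL1, smallest in PC-3.

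**Figure D5:**
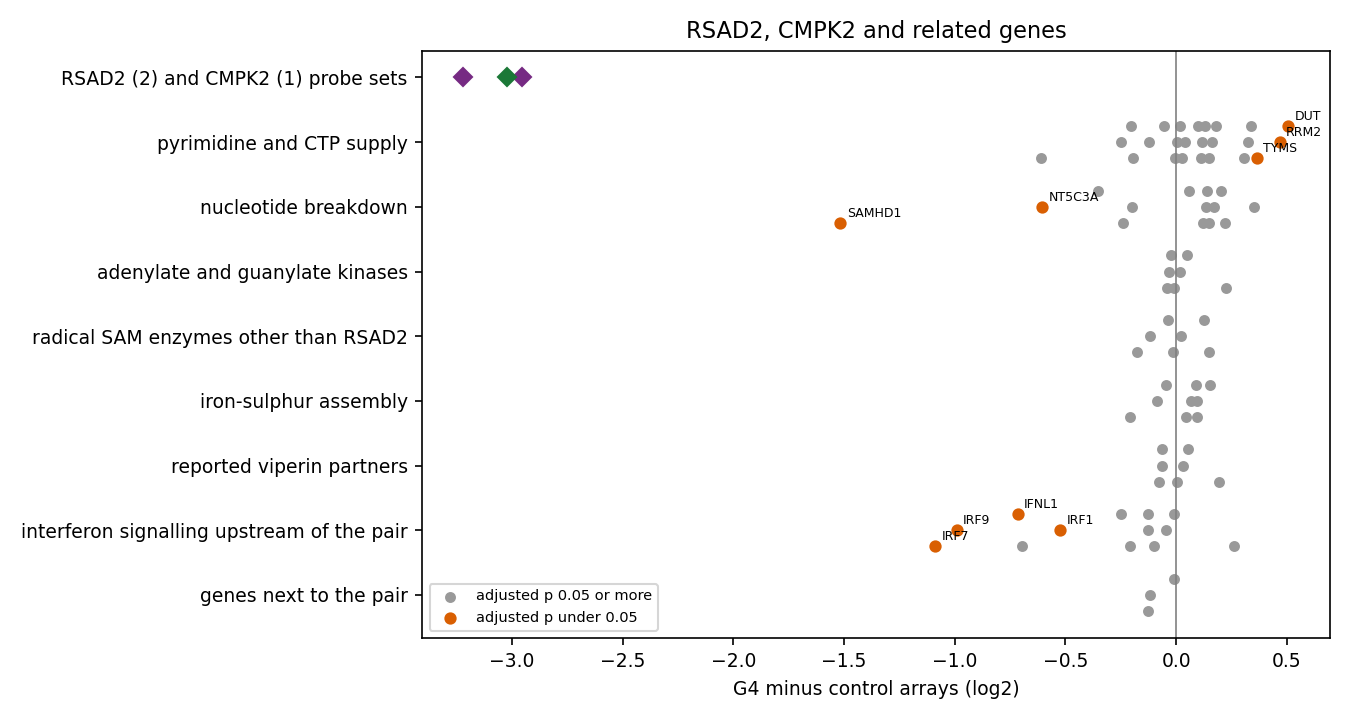
G4 minus control arrays (log2, horizontal) for the RSAD2 (purple diamonds) and CMPK2 (green diamond) probe sets and, below them, for each gene of the 7 lists and the 3 measured neighbours; each dot is 1 gene, orange where the adjusted p is under 0.05. RSAD2 and CMPK2 lie near -3, SAMHD1 at -1.52 and IRF7 at -1.09, and most other dots lie near 0.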

How the data were processed

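Total RNA of 12 samples was hybridised to Affymetrix human genome arrays. The deposited values are log2, with RMA named in the submitters' processing notes without a version. In the deposited table the median of every probe set over the 12 arrays is 0 (within 5e-07). Which step did this is not given in the sources used here, and so no level can be given, low signals cannot be recognised, and no depth or filter on dim probes applies. The number of arrays limits the precision.

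Of 54675 probe sets, 62 array controls were left out. Genes were named from the platform annotation of 2016. All 54613 others entered limma fits (limma 3.58.1, R 4.3.3), with Benjamini-Hochberg adjustment over them and a threshold of 0.05. One model had treatment plus cell line as terms, and the line model had oligonucleotide class within line, with 6 residual degrees of freedom each. The line is a block because the arrays of a replicate number come from the same cell line (correlation 0.856 or more within lines, -0.171 or less between). SDs are over the 3 line differences, and intervals (95%) are the fit's. The fits were tested on simulated data. Alternatives were quantile normalization, limma-trend, 1 or averaged probe sets per gene, a filter on SD, no block, fewer arrays and permutation.

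The members and lists were chosen with earlier results of these data known. Named genes were all members, the 8 genes most like each, 5 neighbours per side, and list genes past the threshold or, for each list, those with the smallest p, of which some are printed. IRF3, CMPK1, CTPS1, CTPS2, HADHB, FDPS, IFNB1 and IFNAR2 were named after their values were seen. Lists, markers and neighbours use the probe set of each gene with the largest SD, while the shares beside their counts cover all probe sets. Some named list genes that did not pass had probe sets of both signs. They were CIAO1, CTPS2 (-0.12 to 0.12), ELP3 (-0.18 to 0.07), IFNAR2 (-0.26 to 0.11), CMPK1, NT5C2 and VAPA. Some items are not reported here.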

Additional observations from a re-analysis of the deposited data

Results flagged for a closer look

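The size of the fall with G4 oligonucleotides differed between the 3 lines for RSAD2 242625_at (limma interaction F test, adjusted p = 0.0254) and for CMPK2 226702_at (adjusted p = 0.0191). For RSAD2 the differences were -3.70 (PC-3), -4.31 (HBC4) and -1.65 (MKN74), and for CMPK2 -3.32, -3.97 and -1.77 in the same order. The spread comes from 2 arrays of different treatments per class and line. RSAD2 213797_at did not pass (limma interaction F test, adjusted p = 0.0713). The call ended without any of 8 single arrays for RSAD2 242625_at and without any of 6 for CMPK2. PC-3 against HBC4 did not pass for any of the 3 probe sets.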

How the results depend on the processing

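In every setting run for it, each of the 3 probe sets was lower in G4 arrays, with (uuaggg)4 against (uuaccc)4 and with AS1411 against reagent alone. RSAD2 213797_at was not run per gene. Calls changed as follows, and the cause of these changes was not tested in any setting. Without the cell line as a replicate block the G4 differences of -3.22 for RSAD2 242625_at and -3.02 for CMPK2, the AS1411 differences of -3.50 and -3.23 and the (uuaggg)4 difference of -2.81 for CMPK2 did not pass (adjusted p = 1.00), nor did any of these 3 comparisons for RSAD2 213797_at. With only the 6 arrays compared, AS1411 gave RSAD2 242625_at -3.50 (adjusted p = 0.0768) and (uuaggg)4 gave CMPK2 -2.81 (0.0525). RSAD2 213797_at lost its (uuaggg)4 call after quantile normalization (0.0683) and its AS1411 call with only the arrays compared (0.0516), and its interaction passed after quantile normalization (0.0410). Limma-trend put -2.93 for RSAD2 242625_at with (uuaggg)4 past the threshold (0.0460). The control difference of CMPK2 between PC-3 and MKN74, 0.54, passed with 1 probe set per gene (0.0461), averaged probe sets (0.0427) and the SD filter (0.0396), and was -0.32 after quantile normalization. That of RSAD2 between PC-3 and HBC4 passed with averaged probe sets (0.91) and the SD filter (0.70), and between PC-3 and MKN74 after quantile normalization (-0.80). (uuaccc)4 against reagent alone gave CMPK2 0.0037 after quantile normalization. RSAD2 213797_at in place of 242625_at turned the difference from CMPK2 to 0.069.

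Leaving out 1 line or array gave, for RSAD2 242625_at and CMPK2 in turn, -4.00 to -2.67 and -3.65 to -2.55 for G4 oligonucleotides, -3.57 to -2.36 and -3.39 to -2.24 for (uuaggg)4 against (uuaccc)4, and -4.43 to -2.99 and -3.90 to -2.86 for AS1411. For (uuaccc)4 against reagent alone the ranges were -0.62 to 0.42 and -0.47 to 0.36, and -0.58 to 0.25 for RSAD2 213797_at. RSAD2 242625_at had -1.70 to -1.60 within MKN74 and 0.49 to 0.90 between PC-3 and HBC4. CMPK2 had 0.37 to 0.70 between PC-3 and MKN74, and RSAD2 213797_at -0.33 to 0.044. The interaction's adjusted p ran from 0.00805 to 0.0972 and from 0.00737 to 0.0813. The 600 probe sets called lower became 359 with 1 probe set per gene, 326 with averaged probe sets, 0 without the block (limma, 1225 at an unadjusted p under 0.05 in either direction), and 78 (without HBC4) to 487 without 1 line or array. Permutation was not run for 3 pairs of arrays, whose smallest possible p is 0.25.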
